A study of Mus musculus with 10 samples.

Results

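Cell cycle and proliferation genes were followed as a set of 40 genes, named by symbol and matched to the rows of the expression table of the study. All 40 were found among its 18216 genes, and all 40 passed the filter on low values (a mean of at least 10 over the mice). They fell into 4 groups by role, with 16 genes of mitosis and cytokinesis, 10 of DNA replication, 8 G1 cyclins and kinases, and 6 made of E2f1, Rb1 and inhibitors of cyclin-dependent kinases (CDKs). RNA-seq of the prefrontal cortex was done at postnatal day 10 in 10 male C57BL/6N mice, 5 heterozygous (HT) for a germline, protein-truncating mutation of Arid1b and 5 wild-type (WT) littermates, with 1 library per mouse. HT fathers had been crossed with WT C57BL/6N mothers, no further allele or agent is named, and the mutation is present in every cell of an HT mouse. Values are normalised read counts, that is, estimated counts divided by a size factor for each library. ARID1B is a subunit of the BAF chromatin remodelling complex, and the question put to these genes was whether their level differed between HT and WT mice.

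The cell cycle is driven by CDKs, which are switched on by cyclins and held back by inhibitor proteins. D-type cyclins with Cdk4 and Cdk6 release E2F factors from the Rb protein in G1, E2F targets then copy the DNA in S phase, and a later set of genes builds the spindle and divides the cell. In the rodent cortex neurons have left the cycle by birth, so that the dividing cells of the young postnatal cortex are largely glial precursors, with others arriving from or lying near the subventricular zone. In bulk tissue, fewer cells of a type and less RNA per cell cannot be told apart.

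Column totals ranged from 31106330 to 32106791 after scaling, library depth is unknown, and libraries correlated with each other at r of 0.9816 to 0.9888. Arid1b itself separated the genotypes in all 10 libraries, at 1767 to 1987 normalised counts in HT and 2662 to 3018 in WT mice (log2 fold change -0.58, 95% interval -0.69 to -0.48, adjusted p = 9.96e-05). All 10 neuronal markers were measured in all mice (summed level 215935.1 to 270572.2 in HT and 252346.3 to 276962.9 in WT mice, the lowest in HT2). The summed level of 13 striatal markers was 11783.5 to 13751.3 in HT5, WT3 and WT5 and 23936.0 to 33314.0 in the other 7 mice, with Isl1 at 0.8, 0 and 0 in HT5, WT3 and WT5. The summed level of 10 olfactory bulb markers was highest in HT2 (5965.7) and WT4 (5655.0), against 1685.3 to 3792.8 in the other 8 mice. The mean z-scores of 12 astrocyte and 12 microglia markers (each gene's log2 level centred and scaled over the 10 mice) were highest in HT2 (1.36 and 1.54) and HT5 (1.29 and 1.56), against -1.02 to 0.43 and -0.95 to -0.02 in the other mice. Counts are given with all 10 mice and then without HT5, WT3 and WT5, without HT2 and WT4, or without HT2 and HT5, where stated.

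Measured per length, the set held both abundant and scarce transcripts. The highest members were the G1 genes Ccnd2 at 433 and Cdk4 at 428 normalised counts per kilobase of exon, next to the replication clamp Pcna at 423. Other G1 genes stood far lower, with Ccnd3 at 56.4, Ccne2 at 50.1, Cdk2 at 29.8 and Cdk6 at 28.4. The CDK inhibitor Cdkn1b stood at 303, Ccnd1 at 293, Rb1 at 266 and Cdkn1a at 239 on the same scale. Among the markers of dividing cells, Mki67 stood at 54.4 and Top2a at 44.7, and the lowest members were Tyms and Cenpf at 12.7 each. Part of the exonic sequence of some members also occurs in other annotated genes, so that reads could be split between copies. The share of 31-base words found elsewhere was 27.7% for Ccnb1, 26.8% for Mcm7, 23.3% for Pcna, 14.8% for Plk1, 12.0% for Rrm2 and 9.82% for Tyms, and it was 6.35% or less for the other members, so the values of these 6 genes are less certain.

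Promoters of cell cycle genes are known to carry short elements through which their transcription is timed. The CHR element is known to bind the DREAM and MuvB complexes, the CCAAT box binds NF-Y, and E2F elements bind E2F factors. RefSeq promoters (GRCm38.p6, from 250 bases before to 50 after the transcript start) were found for 31 of the 40 members, with no entry for Ccna2, Aurkb, Tpx2, Mcm4, Ccnd1, Ccnd2, Ccne2, Rb1 and Cdkn1c. They were searched on both strands. The CHR was taken as TTTGAA and, in a variant form known for some genes, as TTCGAA. The other elements were the letters of the CCAAT box as named and, for E2F, any of TTTCCCGC, TTTGGCGC and TTTCGCGC. The 250 bases before the start are shown 5′ to 3′ for 6 members that carry the contrast between role groups, with matches on either strand in capitals. Mki67 (chr7:135716380-135716629, minus strand), Top2a (chr11:99024190-99024439, minus strand) and Cdk1 (chr10:69352913-69353162, minus strand) are shown as mitosis genes with several CHR and CCAAT matches.
Mki67: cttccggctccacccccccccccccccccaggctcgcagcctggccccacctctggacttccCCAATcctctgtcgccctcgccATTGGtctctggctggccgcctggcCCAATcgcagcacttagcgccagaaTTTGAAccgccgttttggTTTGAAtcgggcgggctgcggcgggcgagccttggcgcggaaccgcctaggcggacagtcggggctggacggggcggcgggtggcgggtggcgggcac
Top2a: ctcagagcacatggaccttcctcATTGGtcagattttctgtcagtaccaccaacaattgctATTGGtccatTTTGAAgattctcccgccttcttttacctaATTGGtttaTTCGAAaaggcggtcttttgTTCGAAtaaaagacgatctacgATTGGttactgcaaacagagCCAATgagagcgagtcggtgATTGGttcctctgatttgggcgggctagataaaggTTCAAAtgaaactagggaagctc
Cdk1: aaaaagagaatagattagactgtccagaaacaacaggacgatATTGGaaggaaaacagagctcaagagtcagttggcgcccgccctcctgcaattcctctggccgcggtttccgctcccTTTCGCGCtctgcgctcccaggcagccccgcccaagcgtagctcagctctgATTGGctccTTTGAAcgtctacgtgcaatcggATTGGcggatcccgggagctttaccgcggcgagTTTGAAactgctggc
Mcm5 (chr8:75109259-75109508, plus strand) and Mcm7 (chr5:138171884-138172133, minus strand), subunits of the helicase that opens DNA for replication, are shown for their E2F matches, which in Mcm5 overlap each other.
Mcm5: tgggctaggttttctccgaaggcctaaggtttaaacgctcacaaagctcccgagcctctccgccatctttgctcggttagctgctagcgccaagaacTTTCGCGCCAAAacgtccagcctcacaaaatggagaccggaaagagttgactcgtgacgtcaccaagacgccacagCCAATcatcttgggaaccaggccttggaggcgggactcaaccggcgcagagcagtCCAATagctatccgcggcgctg
Mcm7: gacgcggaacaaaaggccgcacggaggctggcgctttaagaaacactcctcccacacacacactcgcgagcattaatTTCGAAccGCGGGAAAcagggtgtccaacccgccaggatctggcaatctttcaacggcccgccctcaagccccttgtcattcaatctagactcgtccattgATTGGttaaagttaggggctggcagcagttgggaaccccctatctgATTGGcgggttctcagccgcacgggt
Ccnd3 (chr17:47504801-47505050, plus strand), a G1 cyclin, is shown as a promoter with no match before the start. Another promoter listed for this gene holds 1 CCAAT match.
Ccnd3: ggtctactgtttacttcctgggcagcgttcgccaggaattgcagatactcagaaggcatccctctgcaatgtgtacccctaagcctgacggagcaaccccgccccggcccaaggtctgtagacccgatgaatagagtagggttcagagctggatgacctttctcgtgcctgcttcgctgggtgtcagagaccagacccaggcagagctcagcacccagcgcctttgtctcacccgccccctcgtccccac

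The matches are given by role group, as counts with no test. A CHR match was found for 10 of 13 mitosis members (76.9%), 2 of 9 replication members (22.2%), 0 of 5 G1 cyclins and kinases and 0 of 4 of the last group, against 16.5% of the tested genes with a promoter entry and 19.2% of all 32851 promoters. E2F matches showed another order, with 1 of 13 mitosis members (7.69%), 4 of 9 replication members (44.4%), 1 of 5 G1 genes and 0 of 4 of the last group, against 3.67% of tested genes and 1.84% of all promoters. The 4 replication members were Mcm3, Mcm5, Mcm6 and Mcm7, each with at least 2 matches. The CCAAT box was found for 12 of 13 mitosis and 8 of 9 replication members (92.3% and 88.9%), and for 2 of 5 and 2 of 4 of the other groups, against 42.5% of tested genes and 37.4% of all promoters. In separate lists of further cell cycle genes, CHR was found in 40 of 55 mitosis genes (72.7%), 10 of 43 replication genes (23.3%) and 10 of 25 G1 control genes (40%). E2F was found in 4 of 55 (7.27%), 17 of 43 (39.5%) and 9 of 25 (36%), and the CCAAT box in 39 of 55 (70.9%), 24 of 43 (55.8%) and 15 of 25 (60%). The further G1 control genes thus held CHR and E2F matches in larger shares than the G1 members and the last group, and the CCAAT shares of further mitosis and replication genes were lower than those of the members. Different motifs overlapped at 1 place, where an E2F match of Mcm7 after the start shares a base with a CCAAT match. A match is only a run of letters, and no binding was measured.

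**Figure D1:**
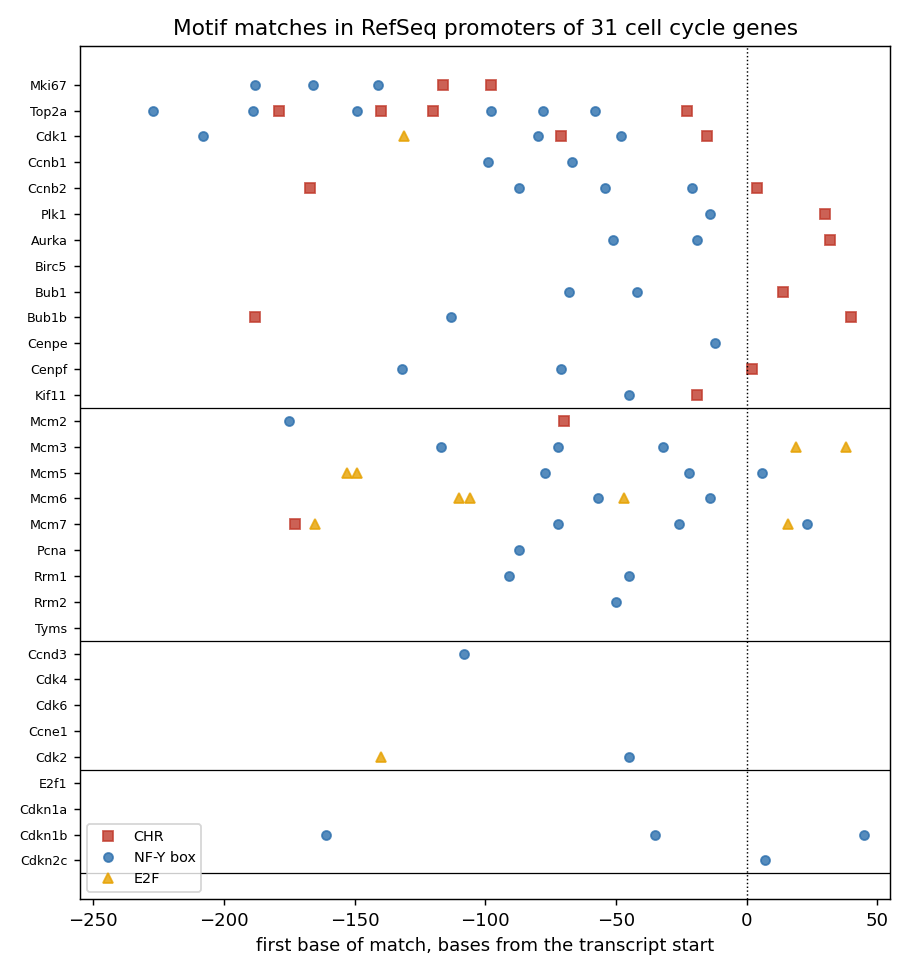
Matches to the CHR (red squares), NF-Y or CCAAT box (blue circles) and E2F (yellow triangles) motifs in RefSeq promoters of 31 members, 1 promoter per gene, with the first base of each match on the horizontal axis in bases from the transcript start (dotted line) and lines between the role groups. CHR matches lie in 10 of the 13 mitosis genes at the top and in none of the 9 genes of the lower groups.

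No member passed the test between genotypes. At an adjusted p under 0.05 in limma, 0 of 40 members were called, against 3 of all 16781 genes tested (0.0179%), and the smallest adjusted p of a member was 0.507. At an unadjusted p under 0.05, 2 members were higher in HT mice (5%), Ccnb1 and Ccnd3, against 4.71% of all genes, and 0 were lower, against 4.52%. The HT and WT values overlapped for all 40 members, while every HT value lay above every WT value for 0.703% of all genes and below for 0.918%. A two-sided exact permutation p under 0.05 was found for 0 of 40 members, against 1472 of the 16781 genes tested. The log2 fold changes (HT minus WT) lay above 0 for 28 members and below 0 for 12, with a median of 0.084 and a range from -0.24 (Bub1) to 0.48 (Cenpf), and lay above 0 for 48.8% of all genes tested, with a median of -0.004. The count of 28 ranged from 24 (without WT5) to 32 (without HT1) when single mice were left out. It was 23 without HT5, WT3 and WT5 (57.5%, against 47.4% of all genes), 28 without HT2 and WT4 (70%, against 49.5%) and 25 without HT2 and HT5 (62.5%, against 49.4%). The count of 2 higher members moved when single mice were left out. This count was 4 without HT1, 5 without WT1, 6 without WT4, 1 without HT2, HT4, HT5, WT3 or WT5 and 0 without WT2, and 1 member was lower without WT2. For these single-mouse fits no share of all genes at that p is given, so the counts are not read as a result about the members. Without HT5, WT3 and WT5 there was 1 higher and 1 lower (2.5% each), against 2.04% and 1.83% of all genes in the same fit. Without HT2 and WT4 there were 4 higher (10%) and 0 lower, against 4.49% and 4.51%, and without HT2 and HT5 there was 1 higher (2.5%) and 0 lower, against 2.96% and 3.06%. The share of all genes called thus also fell in the first and last of these fits, which hold 7 and 8 mice, and 0 members passed the adjusted threshold in any of them.

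**Figure D2:**
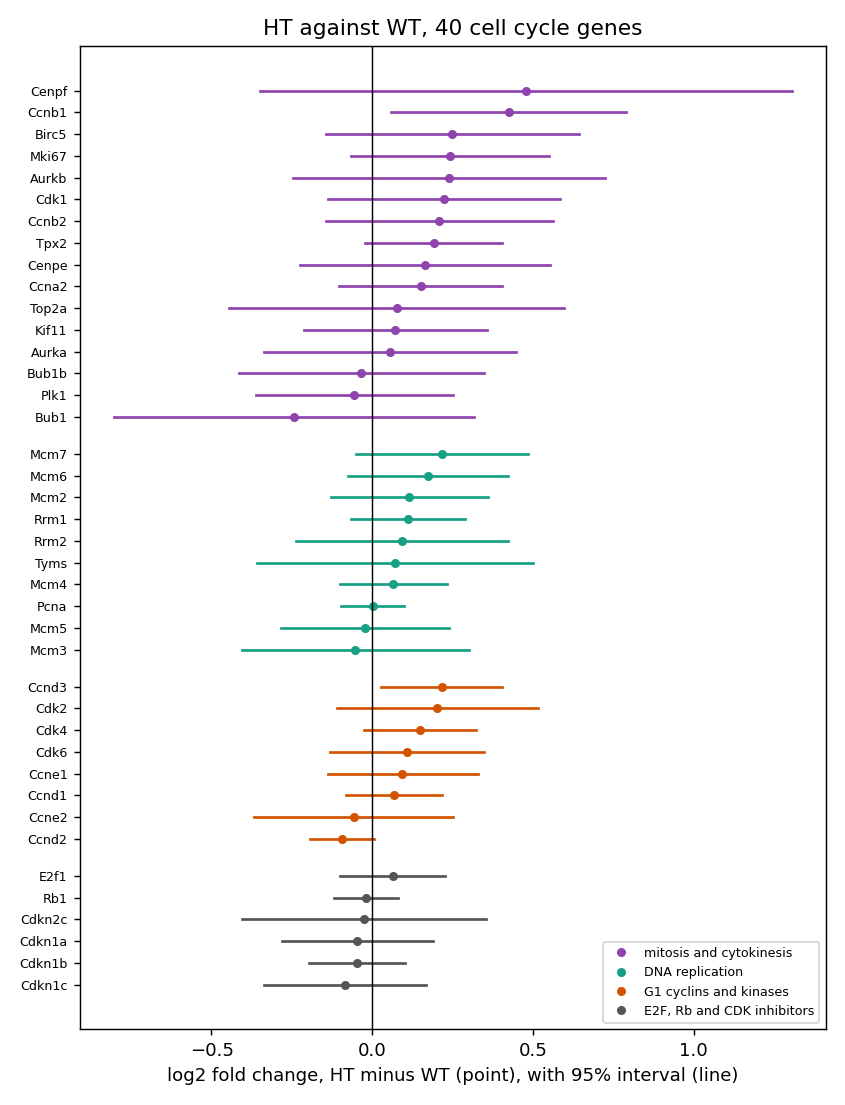
Log2 fold change between HT and WT mice (horizontal axis, point, with its 95% interval from limma as a line) for the 40 members, grouped by role and sorted within each group. The intervals of Ccnb1 and Ccnd3 lie above 0 before adjustment, and those of the other 38 members include 0.

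Genes of mitosis and cytokinesis had a median log2 fold change of 0.18, with 13 of 16 above 0. HT and WT values overlapped for each of them. Mki67 (ENSMUSG00000031004, chr7:135689784-135716361), the antigen of dividing cells, stood at 472.5, 629.4, 541.5, 712.1 and 593.8 normalised counts in HT mice and at 619.6, 418.1, 405.5, 637.6 and 438.9 in WT mice. WT2, WT3 and WT5 lay below all HT mice, and WT1 and WT4 lay within the HT range, and the means were 589.9 ± 90.32 in HT and 503.9 ± 114.6 in WT mice (SD, n = 5 each) (log2 fold change 0.24, 95% interval -0.065 to 0.55, adjusted p = 0.596). Top2a (ENSMUSG00000020914, chr11:98992943-99024189), the topoisomerase that untangles replicated DNA, was measured at 217.9, 485.5, 402.4, 490.3 and 466.8 in HT and 522, 392.6, 277.5, 512.1 and 257.2 in WT mice. Its lowest value was in HT1 and its highest in WT1, and the groups overlapped (log2 fold change 0.076, 95% interval -0.45 to 0.60, adjusted p = 0.929).

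Ccnb1 (ENSMUSG00000041431, chr13:100778650-100786570), the cyclin that drives entry into mitosis with Cdk1, had the smallest p of this group. Its values were 85, 96.4, 107.7, 119.7 and 87.5 in HT mice and 90.4, 57.3, 71.3, 95.5 and 59 in WT mice. WT2, WT3 and WT5 again lay below all HT mice, while WT1 and WT4 did not, with means of 99.26 ± 14.51 in HT and 74.71 ± 17.6 in WT mice (SD, n = 5 each) (log2 fold change 0.42, 95% interval 0.060 to 0.79, adjusted p = 0.507, unadjusted p = 0.0257, exact permutation p = 0.0635). It is also the member with the largest share of sequence found elsewhere.

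The highest ratios of the highest to the lowest mouse were those of Cenpf (4.11) and Bub1 (3.32), which act at the kinetochore and were picked out after their values were seen. Cenpf had 173.2, 380.3, 115.3, 334 and 130.5 normalised counts in HT and 358.9, 117.7, 107.6, 148.5 and 92.6 in WT mice. HT2, HT4 and WT1 stood at 334.0 or above and no other mouse exceeded 173.2, and the interval of the log2 fold change of 0.48 ran from -0.35 to 1.305. The log2 fold change was 0.25 without HT2 and 0.81 without WT1. Bub1 was measured at 38.7, 59.8, 59.9, 53.4 and 50.9 in HT and 124.9, 54, 37.7, 61.9 and 56.3 in WT mice, where WT1 stood apart. Its log2 fold change of -0.24 became 0.009 when WT1 was left out.

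The other members of this group gave log2 fold changes of 0.25 (Birc5), 0.24 (Aurkb) and 0.055 (Aurka), which code for survivin and the Aurora B and A kinases, 0.22 (Cdk1), 0.21 (Ccnb2) and 0.15 (Ccna2) for the mitotic kinase and its cyclins, 0.19 (Tpx2), 0.17 (Cenpe) and 0.072 (Kif11) for spindle proteins, and -0.034 (Bub1b) and -0.056 (Plk1) for the checkpoint protein BubR1 and the polo kinase. Their adjusted p-values in limma lay at 0.565 or above. The group median was 0.035 and 10 of 16 lay above 0 without HT5, WT3 and WT5, with Top2a, Cenpe and Kif11 now below. The median was 0.21 with 13 above 0 without HT2 and WT4, and 0.093 with 11 above 0 without HT2 and HT5.

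**Figure D3:**
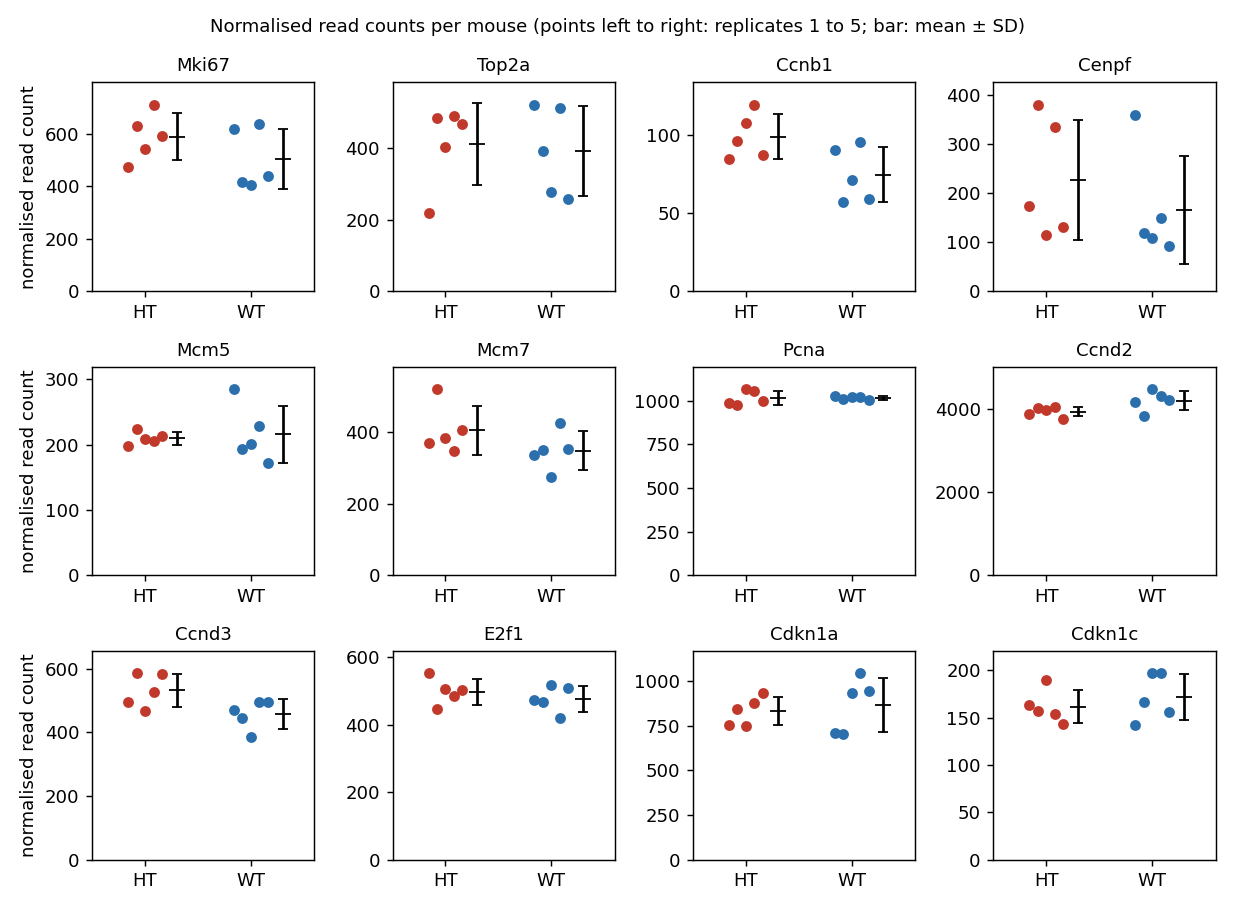
Normalised read counts (vertical axes, from 0) of 12 members in each of 5 HT (red) and 5 WT (blue) mice, in the order of replicate number, with the mean and SD as a black bar. The groups overlap in every panel, with Mki67 at 472.5 to 712.1 in HT and 405.5 to 637.6 in WT mice, and Pcna spans only 976.4 to 1066.8 over all 10.

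DNA replication genes had a median log2 fold change of 0.082, with 8 of 10 above 0 and no member at an unadjusted p under 0.05. The median was 0.029 without WT3, 0.035 without WT5, 0.14 without HT1 and 0.15 without WT4. Mcm7 (ENSMUSG00000029730, chr5:138164583-138172422) had the smallest p of the group, 0.102. Its level was 369.9, 521.3, 383.6, 346.9 and 405.5 in HT and 337.5, 349.8, 274.2, 427.4 and 353.3 in WT mice, with the top value in HT2 and the bottom value in WT3 (log2 fold change 0.22, 95% interval -0.049 to 0.48, adjusted p = 0.588). Mcm5 (ENSMUSG00000005410, chr8:75109569-75128439), another subunit of the same helicase, was at 197.5, 223.5, 208.7, 204.8 and 213.7 in HT and 285.1, 193.6, 200.6, 229.1 and 171.7 in WT mice. All HT values lay inside the WT range, whose ends were WT5 and WT1 (log2 fold change -0.022, 95% interval -0.28 to 0.24, adjusted p = 0.96).

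Pcna (ENSMUSG00000027342, chr2:132249162-132253314), the sliding clamp of the DNA polymerases, had the lowest ratio of the highest to the lowest mouse, 1.09. It was counted at 989.2, 976.4, 1066.8, 1054 and 999.1 in HT mice and 1025.2, 1006.7, 1019.5, 1018.9 and 1005.3 in WT mice. The interval of the difference was narrow (log2 fold change 0.002, 95% interval -0.096 to 0.10, adjusted p = 0.991). The remaining helicase subunits gave log2 fold changes of 0.17 (Mcm6), 0.12 (Mcm2), 0.066 (Mcm4) and -0.052 (Mcm3). Rrm1 and Rrm2, the subunits of ribonucleotide reductase, gave 0.11 and 0.092, and thymidylate synthase, Tyms, gave 0.071. The replication median was -0.021 and 4 of 10 lay above 0 without HT5, WT3 and WT5, with Rrm1, Rrm2, Tyms and Mcm4 now below. It was 0.15 without HT2 and WT4 and 0.048 without HT2 and HT5, both with 8 above 0.

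Among G1 cyclins and kinases the median was 0.10, with 6 of 8 above 0. It was 0.084 with 7 above 0 without HT5, WT3 and WT5, 0.078 with 5 above 0 without HT2 and WT4, and 0.054 with 5 above 0 without HT2 and HT5. Ccnd3 (ENSMUSG00000034165, chr17:47505051-47599691), a D-type cyclin, was at 494.4, 585.5, 467.5, 527.3 and 582.3 normalised counts in HT and 468.8, 443.9, 384.8, 494 and 496.5 in WT mice. HT2, HT4 and HT5 lay above all WT mice, and HT1 and HT3 lay within the WT range, with means of 531.4 ± 52.41 in HT and 457.6 ± 45.95 in WT mice (SD, n = 5 each) (log2 fold change 0.22, 95% interval 0.027 to 0.41, adjusted p = 0.51, unadjusted p = 0.0282, exact permutation p = 0.0635). Ccnd2 (ENSMUSG00000000184, chr6:127125162-127152193), the most abundant member per length, gave 3878.5, 4023.7, 3983.6, 4059 and 3776.8 in HT and 4178.5, 3850, 4491.6, 4320.9 and 4219.7 in WT mice. Here 4 WT mice exceeded all HT mice and WT2 did not, and the log2 fold change was on the other side of 0 (log2 fold change -0.093, 95% interval -0.19 to 0.005, adjusted p = 0.55). For Ccnd1 (ENSMUSG00000070348, chr7:144929931-144939925) the values were 1273.7, 1672.4, 1309.2, 1390.8 and 1429.1 in HT and 1398.2, 1356.5, 1285.6, 1276.4 and 1407.2 in WT mice. The WT range lay inside the HT range (log2 fold change 0.068, 95% interval -0.080 to 0.22, adjusted p = 0.749), and the log2 fold change was 0.006 without HT2. The 3 D-type cyclins thus had log2 fold changes of different sign, and Ccnd1 lay at -0.012 without HT2 and WT4 and at -0.022 without HT2 and HT5. Cdk4 and Cdk6, the partners of these cyclins, gave 0.15 and 0.11, and Cdk2, Ccne1 and Ccne2, which act at the start of S phase, gave 0.20, 0.094 and -0.058.

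The last group had 5 of 6 log2 fold changes below 0, with a median of -0.036, which was 0.007 without WT4 and -0.063 without HT2, and below 0 without any other mouse, and no p under 0.411. The count below 0 was 4 of 6 without HT5, WT3 and WT5 or without HT2 and WT4 and 5 of 6 without HT2 and HT5 (medians -0.009, -0.028 and -0.028). E2f1 (ENSMUSG00000027490, chr2:154559407-154569892), the transcription factor released by phosphorylated Rb, was at 552.1, 446.5, 504.8, 483.7 and 501.2 in HT and 471.7, 466.6, 516.3, 418.9 and 506.9 in WT mice, and was the 1 member of the group above 0 (log2 fold change 0.064, 95% interval -0.099 to 0.23, adjusted p = 0.789). Cdkn1a (ENSMUSG00000023067, chr17:29090976-29100727), coding for the p53-responsive inhibitor p21, was at 753.3, 843.9, 749, 875.3 and 934.2 in HT and 711.2, 702.6, 932.5, 1043 and 941.6 in WT mice. The 2 lowest and the 2 highest of the 10 values were all in WT mice (log2 fold change -0.047, 95% interval -0.28 to 0.19, adjusted p = 0.902). Cdkn1b (ENSMUSG00000003031, chr6:134920401-134925513), coding for p27, gave 1333.4, 1456, 1267.3, 1499.8 and 1238.3 in HT and 1355.2, 1327.8, 1287.3, 1571.1 and 1475.6 in WT mice. The groups overlapped over most of their ranges (log2 fold change -0.047, 95% interval -0.20 to 0.10, adjusted p = 0.842). Cdkn1c (ENSMUSG00000037664, chr7:143458339-143461050), an imprinted gene that codes for p57, had 162.9, 157.4, 189.5, 154.1 and 143 in HT and 142.6, 166.7, 196.8, 196.6 and 156.2 in WT mice. The HT values lay inside the WT range (log2 fold change -0.084, 95% interval -0.34 to 0.17, adjusted p = 0.827). Cdkn2c (p18) and Rb1 gave -0.026 and -0.019, the former with a wide interval of -0.41 to 0.35 and the latter with one of -0.12 to 0.080.

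The mitosis and replication genes also differed from mouse to mouse within each genotype. The mean level of the 16 mitosis members, each gene scaled to its mean over the 10 mice, was 87.8%, 118.5%, 96.7%, 117.2% and 102.9% in HT1 to HT5 and 122.3%, 87.3%, 79.6%, 110.6% and 77.0% in WT1 to WT5. WT5 was among the 3 lowest mice for 14 of the 16 genes and WT3 for 13, while HT2, HT4 and WT4 were among the 3 highest for 10 each. The replication members gave 90.2%, 106.5%, 103.2%, 102.7% and 109.7% in HT1 to HT5 and 106.3%, 99.4%, 86.7%, 109.6% and 85.7% in WT1 to WT5. WT3 and WT5 were thus the lowest mice for both groups, and both also belong to the 3 libraries with low striatal markers, while the third of these, HT5, stood at 102.9% and 109.7%.

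**Figure D4:**
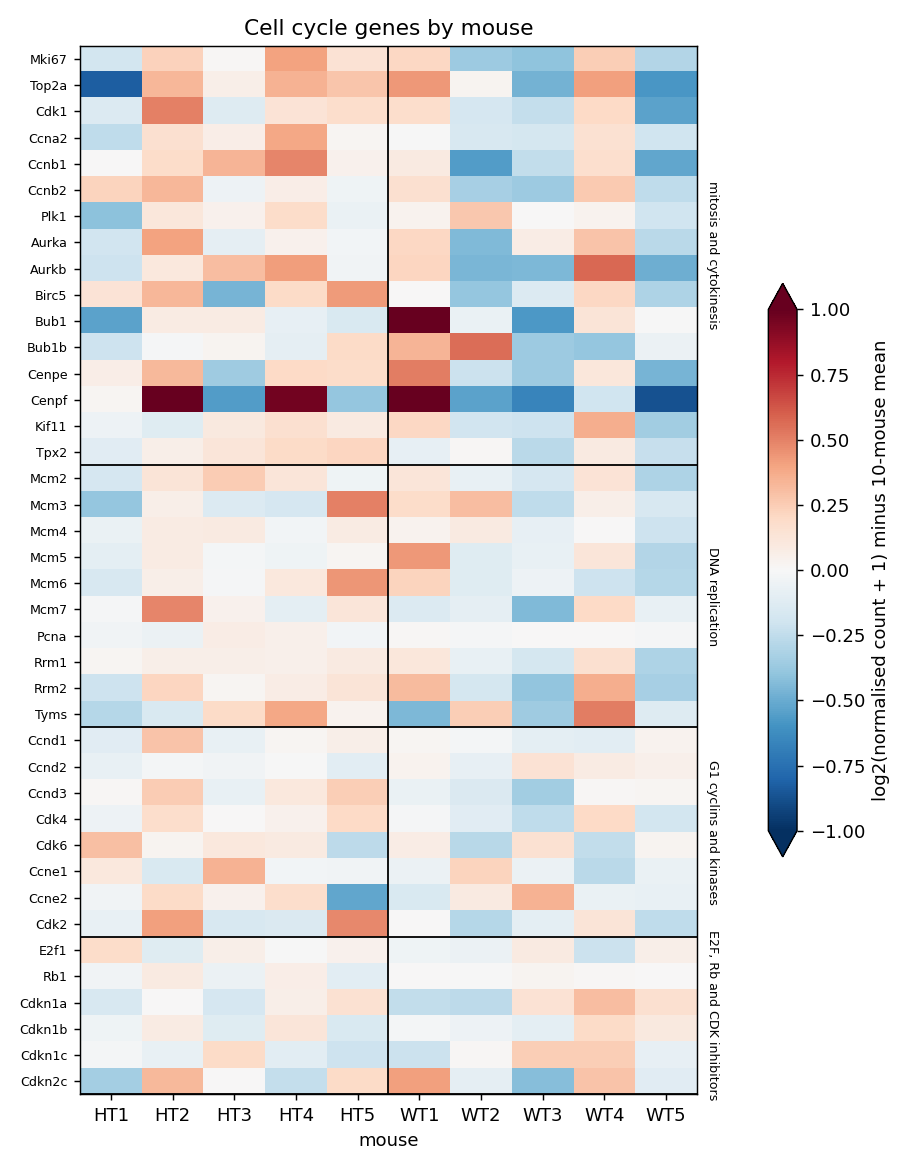
Difference of log2(normalised count + 1) from the mean of 10 mice (colour, red above and blue below, cut at -1 and 1) for the 40 members (rows, by role group) in each HT and WT mouse (columns). Most mitosis and replication rows are blue in WT3 and WT5, and 14 of 16 mitosis genes have WT5 among their 3 lowest mice.

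This shared variation was described by correlations over the 10 mice of each gene's deviation from its genotype mean, given with no p since the genes share libraries. The median Pearson r over the 120 pairs of mitosis members was 0.57, with 110 pairs above 0, and over the 45 pairs of replication members it was 0.40, with 40 above 0. Between the groups the median was 0.43 (144 of 160 pairs above 0). Over the wider lists of further genes it was lower, at 0.26 for mitosis genes (71.2% of 2080 pairs above 0) and 0.11 for replication genes (62.5% of 1540 pairs). It was -0.07 among G1 cyclins and kinases and close to 0 in the last group, as against 0.00 over pairs of every 20th gene tested. Without HT5, WT3 and WT5, the libraries low in striatal markers, the median was 0.48 for mitosis pairs (100 of 120 above 0), 0.22 for replication pairs (36 of 45) and 0.37 between the groups (121 of 160). Without HT2 and WT4 these medians were 0.56, 0.35 and 0.44. The members whose deviations lay closest to those of the mitosis genes (each left out of the mean when it was one of them) were Rrm2 at r = 0.95, Mki67 at 0.94, Top2a at 0.90 and Cdk1 at 0.88. Of the replication genes, Rrm1 (0.85), Mcm5 (0.82) and Mcm2 (0.81) followed, whereas Pcna stood at 0.17. Cdk4 (0.80) and the inhibitor gene Cdkn2c (0.76) were also high, while E2f1 lay at -0.81, Ccne1 at -0.50 and Cdk6 at -0.34. Set beside the promoter matches, this r had a median of 0.70 in the 10 mitosis members with a CHR match (0.04 in Bub1b to 0.94 in Mki67) and of 0.76 in the 3 without (0.48 to 0.80). Over all 31 members with a promoter the median was 0.70 in the 12 with a CHR match and 0.48 in the 19 without (-0.81 in E2f1 to 0.95 in Rrm2). As 10 of these 12 are mitosis members, whose mean the r is taken against, this contrast cannot be separated from role group.

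Among tested genes outside the set, those most like the mean of the mitosis members included Zbtb7c (r = 0.96), Ercc6l (0.95), Gm28229 (0.94), Ticrr (0.94), Igsf11 (0.93), Sgo2a (0.93), Fam163a (0.92), Usp40 (0.92) and Zbtb12 (0.91), over 10 mice. They were chosen for the highest r among all tested genes, and Ercc6l, Ticrr and Gm28229 had means of only 20.1, 31.2 and 35.3 normalised counts.

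Of the members only Mki67, the antigen of dividing cells, was set against marker lists of 8 cell types that the dissected tissue could hold. Each list was summarised in a mouse as the mean z-score of its genes, and p-values came from 100000 permutations of the 10 mice, two-sided, adjusted over the 8 lists. Against 14 oligodendrocyte precursor markers Pearson's r was 0.76 (permutation p = 0.00763, adjusted 0.0305) and Spearman's rho 0.89 (permutation p = 0.00124, adjusted 0.00912). The r was 0.71 without HT2 and WT3, the mice farthest from the median of the list. Against 14 subventricular progenitor and neuroblast markers r was 0.80 (permutation p = 0.00705, adjusted 0.0305) and rho 0.87 (permutation p = 0.00228, adjusted 0.00912), and r was 0.87 without HT2 and WT4. Without HT5, WT3 and WT5, leaving 7 mice, r no longer passed (0.57, exact permutation p = 0.196, for the precursor list and 0.68, exact permutation p = 0.094, for the subventricular list), whereas rho was 0.82 and 0.86 (unadjusted exact permutation p = 0.0341 and 0.0238). For the precursor list r was 0.74 and rho 0.88 without HT2 and WT4 (unadjusted exact permutation p = 0.0372 and 0.00724). These lists have 1 gene in common. The other lists did not pass, with adjusted permutation p-values of 0.233 or more for r in astrocyte, microglia, endothelial, mural, meninges and neuron markers. Their r was 0.46, 0.33, 0.40, 0.56, 0.52 and -0.48 in that order. Without the 2 mice farthest from the median of each list it was 0.36 (astrocyte), 0.04 (microglia), 0.40 (endothelial), 0.27 (mural), 0.68 (meninges) and -0.67 (neuron). Whether r differed between the lists was not tested. No r was computed for striatal or olfactory bulb markers, for which the mice fell into separate clusters.

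**Figure D5:**
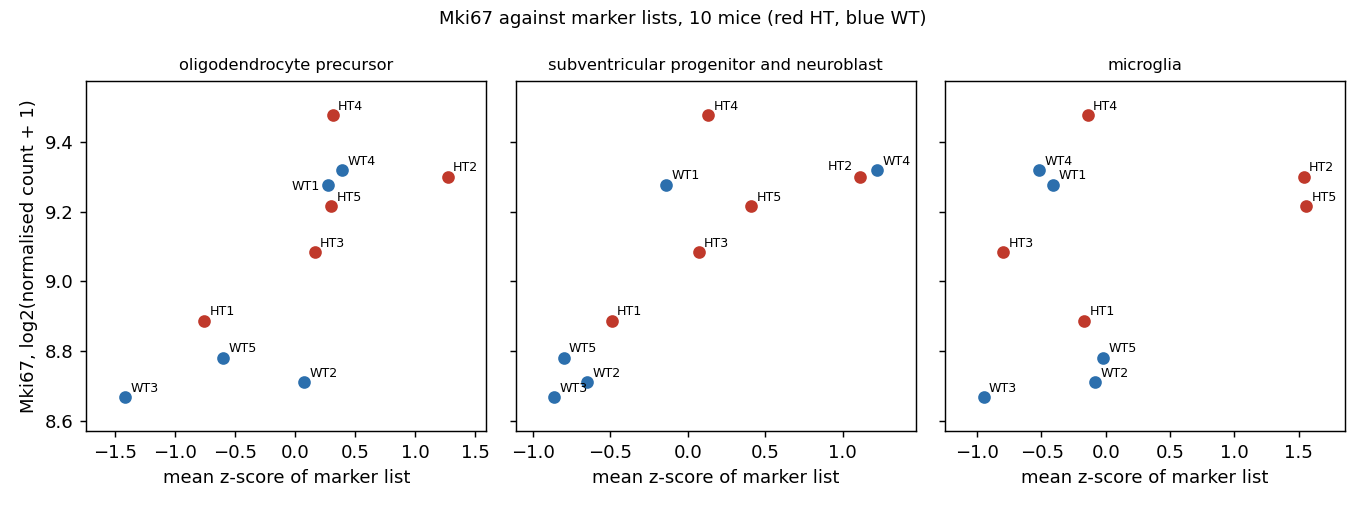
Mki67 in log2(normalised count + 1) (vertical axis) against the mean z-score of 3 marker lists (horizontal axes) in 5 HT (red) and 5 WT (blue) mice, each point labelled with its mouse. Over the 10 mice Mki67 was higher where oligodendrocyte precursor (r = 0.76) and subventricular (r = 0.80) marker levels were higher, relations whose r did not pass without HT5, WT3 and WT5, and for microglia r was 0.33 and did not pass with all mice.

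The same marker lists were compared between genotypes. At an unadjusted p under 0.05, 4.71% of all genes tested were higher and 4.52% lower, and 48.8% lay above 0. These shares were 2.04%, 1.83% and 47.4% without HT5, WT3 and WT5, and 4.49%, 4.51% and 49.5% without HT2 and WT4. Leaving out HT2 and HT5 gave 2.96%, 3.06% and 49.4%. The marker counts here and in the paragraphs on markers that follow stand beside these shares. Of the oligodendrocyte precursor markers 11 of 14 had log2 fold changes above 0, with a median of 0.14 and 2 at an unadjusted p under 0.05, and their summed level was 37602.1 to 51727.1 in HT and 35914.6 to 44327.9 in WT mice. Of the subventricular markers 13 of 14 lay above 0, with a median of 0.15, none at an unadjusted p under 0.05, and sums of 14635.4 to 19237.5 and 13495.0 to 21500.9. All 12 astrocyte markers lay above 0, 8 of them at an unadjusted p under 0.05 (median 0.23, sums 171144.5 to 215675.9 and 155056.0 to 182512.0). Every HT value of Gfap and Clu exceeded every WT value, as for 0.703% of all genes. Gfap stood at 13936.4 in HT5, at 3571.8 to 5006.7 in the other HT mice and at 3071.5 to 3458.4 in WT mice. All 12 microglia markers also lay above 0, 3 of them at that p (median 0.16, sums 12404.1 to 17364.1 and 12115.4 to 13984.0). Of 10 markers each, 7 endothelial, 10 mural, 6 meningeal and 4 neuronal ones lay above 0 (medians 0.087, 0.14, 0.017 and -0.069). At an unadjusted p under 0.05, 0 of the endothelial, 3 of the mural and 1 of the meningeal markers were higher and 2 of the neuronal ones were lower. Above 0 lay also 12 of 13 striatal (median 0.53) and 7 of 8 tested olfactory bulb markers (median 0.41), with none at an unadjusted p under 0.05. The marker counts depended on the libraries that stand apart. Without HT2 and HT5, 11 of 12 astrocyte markers lay above 0 with 4 at an unadjusted p under 0.05 (median 0.082). The same alternative left 6 of 12 microglia markers (median 0.001), 8 of 14 precursor markers (median 0.039) and 10 of 14 subventricular markers (median 0.038) above 0, with 0 at that p in each list. Without HT5, WT3 and WT5, 8 of 14 precursor markers (median 0.017), 7 of 14 subventricular markers (median 0.012), 11 of 12 astrocyte markers (median 0.15, 3 at that p) and 9 of 12 microglia markers (median 0.10) lay above 0. Without HT2 and WT4 the subventricular counts were higher, with 14 of 14 above 0 and 6 at that p (median 0.21), while 10 of 14 precursor markers (median 0.12), 11 of 12 astrocyte markers (median 0.16) and 12 of 12 microglia markers (median 0.086) lay above 0, with 3, 3 and 0 at that p.

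The lists of neighbouring regions and of vessels moved with the libraries as well. Of 13 striatal markers 12 lay above 0 without HT5, WT3 and WT5 (median 0.14) and without HT2 and WT4 (median 0.74), with 0 at an unadjusted p under 0.05, and all 13 without HT2 and HT5, with 7 at that p (median 0.87). Of 8 olfactory bulb markers 6, 8 and 3 lay above 0 in the same 3 fits (medians 0.23, 0.41 and -0.019), with 0, 1 and 0 higher at that p. Mural markers gave 9, 9 and 8 of 10 above 0 with 0 at that p, and endothelial markers 8, 5 and 5 of 10, with 1 higher in the first fit and 1 lower in each of the others. Meningeal markers gave 3, 4 and 3 of 10, with 0, 1 and 0 higher and 0, 0 and 4 lower, and neuronal markers 2, 4 and 4 of 10, with 0, 0 and 1 higher and 0 lower in each.

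Ependymal and red blood cell lists had 6 of 9 genes tested each. Of the ependymal markers 5 of 6 lay above 0 (median 0.59), 4 of them at an unadjusted p under 0.05, and the HT values of Fam216b (6.7 to 33.7 normalised counts) all lay above the WT values (0 to 4.6). The ependymal transcription factor gene Foxj1 was at 108.8 to 218.5 in HT and 73.8 to 116.4 in WT mice, named after its values were seen. The sum of the list overlapped (1480.5 to 1569.0 and 1442.2 to 1591.4). Most of this sum was Ccdc39, at 974 to 1333.5 in HT and 1226 to 1360.3 in WT mice. Ccdc39 was the tested marker below 0 (-0.125), so the sum says little of the other markers. In the 3 fits above, 3 of 5, 5 of 6 and 3 of 5 tested ependymal markers lay above 0, with 1, 4 and 2 at that p (medians 0.24, 0.54 and 0.34). Of the red blood cell markers 5 of 6 lay below 0 (median -0.26), with 1 at that p, Hbb-bs, and sums of 6431.4 to 9385.0 in HT and 7034.0 to 11320.3 in WT mice. In the same 3 fits 5, 6 and 6 lay below 0, with 4 lower at that p in each. No marker of these lists passed the adjusted threshold, Barhl2 and Lhx5 of the olfactory bulb list fell under the filter on low values, and the part of these cell types in the levels of the cell cycle genes was not tested.

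Further genes of the pathway, taken from lists that do not hold the members, gave 0 genes past the adjusted threshold. Of 65 further mitosis genes 45 lay above 0 (69.2%, against 48.8% of all genes), with a median log2 fold change of 0.085. At an unadjusted p under 0.05, 6 were higher (9.23%) and 0 lower, against 4.71% and 4.52% of all genes. Of the 65, 30 lay above 0 without HT5, WT3 and WT5 (46.2%, median -0.024). There 2 were higher and 1 lower (3.08% and 1.54%), against 2.04% and 1.83% of all genes. Without HT2 and WT4 it was 49 (75.4%), with 8 higher (12.3%) and 0 lower, against 4.49% and 4.51%. Without HT2 and HT5 it was 40 (61.5%), with 2 higher and 1 lower (3.08% and 1.54%), against 2.96% and 3.06%. The smallest p-values were those of Cenpa, the centromeric histone (0.40, adjusted p = 0.477), Hmgb2, a chromatin protein abundant in dividing cells (0.45, adjusted p = 0.477), and Iqgap3 (0.47, adjusted p = 0.492). Cenpa was at 178.9, 127.3, 153, 203.9 and 183.2 normalised counts in HT and 113.4, 133.8, 130.1, 110.9 and 145.7 in WT mice. The 4 HT mice other than HT2 exceeded all WT mice.

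Of 56 further replication genes 38 lay above 0 (67.9%), with a median of 0.050. At an unadjusted p under 0.05, 3 were higher and 1 lower (7.14% in all, against 9.23% of all genes). Of the 56, 32 lay above 0 without HT5, WT3 and WT5 (57.1%) and 0 were higher or lower at that p, where 2.04% and 1.83% of all genes were. Without HT2 and WT4, 40 of 55 lay above 0 (72.7%), with 4 higher and 1 lower (7.27% and 1.82%), against 4.49% and 4.51% of all genes. Without HT2 and HT5, 40 of 56 did (71.4%), with 1 higher (1.79%) and 0 lower, against 2.96% and 3.06%. Timeless, a replication fork protein (0.29, adjusted p = 0.496), Rfc1, the large subunit of the loader of Pcna (-0.21, adjusted p = 0.51), and the histone chaperone gene Asf1b (0.54, adjusted p = 0.53) had the smallest p-values. Of 31 further G1 control genes 29 were in the table (not Cdkn2a or Lin54), 15 lay above 0 and the median was 0.007. At an unadjusted p under 0.05, 0 were higher and 2 lower (6.9%), against 4.71% and 4.52% of all genes. In the 3 fits without libraries 13, 14 and 12 lay above 0, with 0 higher in each and 0, 2 and 1 lower. The shares lower at that p were 0, 6.9% and 3.45%, against 1.83%, 4.51% and 3.06% of all genes. Fbxw7, which marks cyclin E for degradation (-0.19, adjusted p = 0.472), the p53-responsive cyclin gene Ccng1 (-0.15, adjusted p = 0.53) and the inhibitor gene Cdkn2b (0.42, adjusted p = 0.566) had the smallest p-values.

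The p53 targets, which include genes that arrest the cycle, were read beside Cdkn1a. Of 20 listed, 19 were in the table (not Gdf15), 8 lay above 0 and the median was -0.019. At an unadjusted p under 0.05, 1 was higher and 3 lower (21.1% in all, against 9.23% of all genes). The lower genes include Ccng1, which was already counted as lower among the further G1 control genes. There were 0 higher and 2 lower without HT5, WT3 and WT5, without HT2 and WT4 there were 1 higher and 5 lower, and without HT2 and HT5 there were 0 higher and 2 lower, with 5, 9 and 7 of 19 above 0. Aen (-0.13, adjusted p = 0.499), Trp53inp1 (0.19, adjusted p = 0.508) and Zmat3 (-0.13, adjusted p = 0.529) had the smallest p-values. They did not lie on 1 side of 0, and 0 of the 19 passed the adjusted threshold.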

How the data were processed

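As described by the authors, stranded poly-A libraries were quantified with Salmon (1.1.0 in the submitters' processing notes) against GRCm38 with GC bias correction, summed to genes with tximport and scaled by DESeq2 (1.30.1) size factors. The deposited values are thus a normalised signal per gene, not whole reads, so depth is unknown and the count test planned for whole reads was not run. The lowest row total was 41.7, so low genes had been left out by a filter not stated in the sources used here.

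Gene positions and exonic lengths came from GENCODE M21 (18205 of 18216 identifiers found). Genes whose mean reached 10 (16781) entered a test on log2(value + 1) with limma 3.58.1 in R 4.3.3 (lmFit, eBayes with trend), with genotype as the only factor, Benjamini-Hochberg adjustment over all of them and a threshold of 0.05. Fold changes on this scale are understated for low genes. Exact two-sided permutation tests used all 252 assignments of the mice, with a smallest p of 0.00794. Mice were grouped and numbered by the sample titles. That each is a separate animal follows from 1 library per mouse.

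The members and gene lists were chosen with earlier results of these data known. Values per mouse are given for Mki67, Top2a, Mcm5, Pcna, Ccnd1, Ccnd2, Cdkn1a, Cdkn1b, Cdkn1c, E2f1, the member with the smallest p in each role group, and any member past the threshold or without overlap. The 3 genes with the smallest p of each further list are named, and Cenpf, Bub1, Gfap, Clu, Fam216b, Foxj1, Ccdc39 and Hbb-bs were added after their values were seen. The genes outside the set most like the mean of the mitosis members were to be 10, of which 1 is not reported here. Mki67 was not set against the ependymal and red blood cell lists, which had 66.7% of their genes tested. Promoters came from RefSeq. The fit was tested on simulated data. Alternatives changed the pseudocount (0.5, 10), the filter (none, 50), the scaling, the variance model, a replicate block and the libraries. Python 3.11.15 with scipy 1.17.1 was used for permutations.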

Additional observations from a re-analysis of the deposited data

Results flagged for a closer look

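Within each genotype, the gap between the highest or lowest mouse and its nearest neighbour was set against the range of the 5 mice for all 40 members. In 2 of the 80 groups it exceeded the critical share of 0.71, where chance at 1 in 20 gives 4. Both were kinetochore genes in WT1. Bub1 stood at 124.9 normalised counts in WT1 and at 37.7 to 61.9 in the other 4 WT mice, a gap of 0.722 of the range. Cenpf stood at 358.9 in WT1 and at 92.6 to 148.5 in the other 4 WT mice, a gap of 0.790, while HT2 and HT4 also reached 380.3 and 334.0.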

How the results depend on the processing

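No member passed the adjusted threshold under any alternative run, and 3 to 4 genes in all did. The direction of 20 members held under all 23 alternatives and that of 20 reversed under at least 1. The pseudocounts, filters, variance models, upper-quartile rescaling and the replicate block reversed none, and the block left 0 members and 3 genes past the threshold, with Arid1b at -0.585 on the log2 scale. Same-numbered HT and WT mice deviated together little (correlations -0.041 to 0.101), so the numbers were not taken as pairs. Quantile normalisation put Aurka at -0.009. Scalings moved the median of all genes to between -0.005 and 0.007.

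Leaving out 1 mouse at a time, log2 fold changes ranged from -0.048 to 0.13 (Aurka), -0.42 to 0.009 (Bub1), -0.14 to 0.10 (Bub1b), -0.11 to 0.066 (Ccne2), -0.12 to 0.025 (Cdkn1a), -0.14 to 0.073 (Cdkn2c), -0.007 to 0.17 (Kif11), -0.19 to 0.039 (Mcm3), -0.099 to 0.083 (Mcm5), -0.015 to 0.016 (Pcna), -0.11 to 0.040 (Plk1), -0.043 to 0.005 (Rb1), -0.060 to 0.29 (Top2a) and -0.034 to 0.21 (Tyms). Of the 26 that kept their sign, 19 moved by over 1.5 times without at least 1 mouse. Cenpf ranged from 0.25 (without HT2) to 0.81 (without WT1). The farthest values of the others were 0.41 (Aurkb, without WT4), 0.40 (Birc5, HT3), 0.073 (Ccna2, HT4), 0.006 (Ccnd1, HT2), 0.018 (Ccne1, HT3), 0.12 (Cdk1, WT5), 0.11 (Cdk2, HT5), 0.046 (Cdk6, HT1), -0.005 (Cdkn1b, WT4), -0.032 (Cdkn1c, WT3), 0.070 (Cenpe, WT5), 0.019 (E2f1, WT4), 0.053 (Mcm2, WT5), 0.023 (Mcm4, WT5), 0.085 (Mcm6, HT5), 0.12 (Mcm7, HT2), 0.049 (Rrm1, WT5) and 0.005 (Rrm2, WT3). The group medians ranged from 0.12 to 0.24 (mitosis), 0.029 (without WT3) to 0.15 (without WT4, replication), 0.055 (without WT4) to 0.12 (G1) and -0.063 to 0.007 (without WT4, E2F, Rb and inhibitors). Members higher at an unadjusted p under 0.05 ranged from 0 (without WT2) to 6 (without WT4), and members lower from 0 to 1 (without WT2), with no share of all genes given beside them.

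Alternatives without certain libraries were chosen after seeing the data, from striatal, olfactory bulb, astrocyte and microglia markers. Without HT5, WT3 and WT5, values were -0.31 (Top2a), -0.080 (Cenpe), -0.10 (Kif11), -0.021 (Mcm4), -0.021 (Rrm1), -0.14 (Rrm2), -0.067 (Tyms), 0.14 (Ccne2) and 0.010 (Rb1), with 1 member higher and 1 lower. Without HT2 and WT4 they were -0.012 (Ccnd1) and 0.018 (Cdkn1a), with 4 members higher and a G1 median of 0.078. Without HT2 and HT5 they were -0.10 (Top2a), -0.051 (Aurka), -0.022 (Ccnd1), 0.034 (Ccne2) and -0.026 (Cdk2), with 1 member higher and a G1 median of 0.054. The r of Mki67 with the oligodendrocyte precursor and subventricular lists, 0.76 and 0.80 over 10 mice, was 0.57 and 0.68 without HT5, WT3 and WT5 and no longer passed (exact permutation p = 0.196 and 0.094). The cause of these shifts was not tested.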
